A study of Mus musculus with 6 samples.

Results

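The 9 genes described here encode factors, a receptor and markers of macrophages, several of them shared with other blood cells. The transcription factors are PU.1 (Spi1), 3 members of the C/EBP family (Cebpa, Cebpb and Cebpd) and Runx1. The others are the CSF1 receptor (Csf1r), the surface proteins F4/80 (Adgre1) and CD45 (Ptprc), and the lysosomal membrane protein Laptm5. The 9 genes were chosen by name, with earlier results of these data known, and all were found among the 52636 genes of each table. RNA was sequenced from RAW264.7 cells, an established macrophage line of BALB/c mouse origin grown in high glucose DMEM with fetal bovine serum. For 3 libraries the cells were kept with 150 µg/ml of an extract, C2S, over 24 h, and the 3 PM_control libraries came from the same line at 0 µg/ml. The labels explain neither name. Nothing in them shows whether replicates came from separate cultures, so a p-value here reflects only the spread among these samples, which may be technical. All results describe 1 cell line.

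PU.1 is an ETS factor without which macrophages do not form, and it opens the enhancers on which most other macrophage factors act. C/EBPα cooperates with PU.1 in committing progenitors to the myeloid lineage, C/EBPβ and C/EBPδ are further members that are induced during macrophage activation, and RUNX1, which binds DNA with its partner CBFβ, acts on the regulatory regions of both Spi1 and Csf1r. CSF1R is the tyrosine kinase receptor through which CSF1 and interleukin 34 sustain macrophage survival. F4/80 is the classical surface marker of mouse macrophages, CD45 is the tyrosine phosphatase found on nucleated blood cells, and LAPTM5 is a lysosomal protein of blood cells that promotes the degradation of immune receptors.

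Sequences just before the annotated starts are shown for the 3 factor genes with the largest fitted changes, to set side by side the starts of 2 genes that rose, Runx1 and Cebpb, and of 1 that fell, Cebpa. They are given 5′ to 3′ from RefSeq (GRCm38.p6, the assembly behind mm10). Windows before RefSeq starts were taken for 5 of the 9 genes, and the start of Csf1r was left out by choice. Runx1 is transcribed from a distal and a proximal promoter, and bases inside GENCODE exons were left out. Capitals mark the matches to the motifs named next.
Runx1 distal (chr16:92826150-92826324, minus strand): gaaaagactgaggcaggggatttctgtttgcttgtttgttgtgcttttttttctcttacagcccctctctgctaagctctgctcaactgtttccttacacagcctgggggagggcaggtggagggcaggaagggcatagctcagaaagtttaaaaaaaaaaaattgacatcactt
Runx1 proximal (chr16:92697330-92697579, minus strand): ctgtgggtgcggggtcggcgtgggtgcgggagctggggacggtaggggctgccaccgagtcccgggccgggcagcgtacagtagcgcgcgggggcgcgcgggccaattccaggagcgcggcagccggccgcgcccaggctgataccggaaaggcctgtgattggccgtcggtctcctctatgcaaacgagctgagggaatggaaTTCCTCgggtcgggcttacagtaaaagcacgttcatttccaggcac
Cebpb (chr2:167688665-167688914, plus strand): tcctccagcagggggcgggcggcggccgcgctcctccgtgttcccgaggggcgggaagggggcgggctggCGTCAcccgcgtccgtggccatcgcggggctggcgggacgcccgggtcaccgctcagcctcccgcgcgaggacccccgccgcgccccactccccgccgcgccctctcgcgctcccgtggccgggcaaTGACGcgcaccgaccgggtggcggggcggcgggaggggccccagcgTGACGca
Cebpa (chr7:35119043-35119292, plus strand): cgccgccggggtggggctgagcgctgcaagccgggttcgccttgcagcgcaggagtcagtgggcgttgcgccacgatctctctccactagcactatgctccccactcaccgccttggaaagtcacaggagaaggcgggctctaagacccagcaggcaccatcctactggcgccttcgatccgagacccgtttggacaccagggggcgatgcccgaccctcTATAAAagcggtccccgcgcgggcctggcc
The 250 bases before each start were searched on both strands for the PU box GAGGAA, the RUNX motif TGTGGT, the C/EBP motif TTGCNNAA, the AP-1 motif TGANTCA, the cAMP response element TGACGTCA and the C/EBP-ATF motif TGATGNAA. The only match among the 4 windows was a PU box, read as TTCCTC, at position -46 from the proximal Runx1 start; 23.3% of 32817 promoter windows of that length hold one. A further search, chosen after the sequences were seen, covered the cAMP response element core TGACG on both strands, which the full element contains, and the TATA box TATAAA on the gene's strand. The Cebpb window held 3 cores, at -180, -53 and -7, where 17.7% of all windows hold at least 1. The Cebpa window held a TATA box at -30, and 7.6% of all windows hold one. Bases before the Cebpb start were 81.6% G or C, against 66.4% for Cebpa, 67.6% for proximal Runx1 and 45.6% for distal Runx1.

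Of the 9 genes, 6 rose with C2S, 1 fell and 2 did not pass the test, and Runx1 was the only member with a change of at least 2-fold. Calls come from the quasi-likelihood F test of edgeR over 11561 genes, with Benjamini-Hochberg adjustment at 0.05. By that rule 55.4% of all tested genes were called, 27% higher and 28.4% lower, and 14.5% were called with at least a 2-fold change. In 6 members the groups did not overlap, all 3 C2S values being above or all below those of the controls, which was also true of 61.1% of all tested genes. The median log2 fold change of the members was 0.35, beside -0.002 over all tested genes. Fewer cells expressing a gene and less of its RNA per cell cannot be told apart in bulk libraries.

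Total expected counts were 8594485 to 10665869 per library, so a floor of 3 counts corresponded to 0.281 to 0.349 CPM (counts scaled to a common library total), a limit that covers counting error only. Every member was measured well above it: the lowest member count in any library was 174, for Cebpd. Without the low-count filter, the median log2 fold change over all genes was 0.105, beside -0.002 with it. Scarce genes thus tended to have higher values with C2S, which limits the scarce genes named below. All 54 member values were whole numbers within 0.005, so no reads shared out in fractions were recorded for them. The higher genes made up 48.8% of all calls, but 38.3% when libraries were scaled by size alone and 35.9% by limma on log2(TPM + 1). TPM is an abundance scaled for transcript length and library depth. Genes with few exons were lower with C2S: the median log2 fold change was -0.47 in nuclear protein-coding genes with 1 exon, -0.50 with 2, -0.14 with 3 to 5 and 0.06 with 10 or more. It also ran with base composition, from -0.29 in the tenth of lowest GC content to 0.15 in the tenth of highest. Cebpb has 1 annotated exon, Cebpa and Cebpd have at most 2, and Spi1 has 5, so values with each trend removed are given beside these genes.

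On the per-length scale, mean TPM in the controls was 1913 for Laptm5, 1254 for Csf1r, 386 for Spi1, 174 for Cebpb, 81.4 for Ptprc, 44.0 for Runx1, 21.2 for Cebpa, 18.3 for Adgre1 and 8.93 for Cebpd. Neighbours in that order were apart in every library of the group, except that the ranges of Cebpa (19.5 to 23.1) and Adgre1 (17.4 to 19.5) overlapped. With C2S the levels were 2463 TPM for Laptm5, 1480 for Csf1r, 321 for Spi1, 245 for Cebpb, 136 for Runx1, 74.0 for Ptprc, 22.7 for Adgre1, 14.0 for Cebpa and 10.6 for Cebpd, and no ranges of neighbours overlapped. Runx1 and Ptprc thus changed places, as did Adgre1 and Cebpa. The gene for the CSF1 receptor stood above 98.8% to 99% of the tested genes in TPM in each library, and Laptm5 above 99.2% to 99.5%. Adgre1 stood above only 42.3% to 54.9% and Cebpd above 25.5% to 36.7%.

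**Figure D1:**
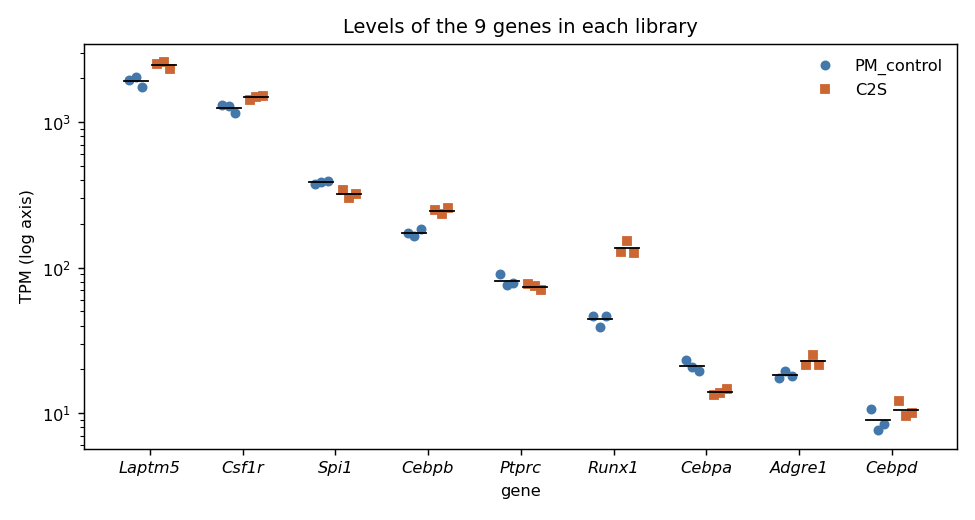
TPM of the 9 genes (log axis) in the 3 PM_control libraries (circles) and the 3 C2S libraries (squares), with a line at each group mean. Runx1 rises past Ptprc, with 125 to 153 TPM with C2S against 39.0 to 46.8 in the controls, while Spi1 and Cebpa lie lower with C2S.

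Runx1 (ENSMUSG00000022952, chromosome 16, 92601466 to 92826149) rose more than any other member. Its CPM, scaled by TMM as for all CPM values here, was 86.8, 76.7 and 70.1 in the 3 PM_control libraries and rose to 214, 242 and 192 under C2S. The groups did not overlap. The group means were 216 ± 25.3 and 77.8 ± 8.41 CPM (SD over n = 3, as in all that follows). The fitted log2 fold change was 1.47 with an SE of 0.09, or 2.77-fold (edgeR, adjusted p = 4.65e-10), and ± after a log2 fold change stands for the SE below. The fitted value lay between 1.38 and 1.60 under every alternative, and the call held in each. The TPM ratio of Spi1 to Runx1 was 8.12, 9.94 and 8.45 in controls and 2.67, 1.95 and 2.56 with C2S. The ratio of Runx1 to Ptprc was 0.515, 0.513 and 0.597 in the controls and 1.67, 2.04 and 1.78 with C2S. These ratios were chosen after the levels were seen and carry no test.

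The tables also give each gene a mean transcript length, weighted by the estimated level of its isoforms, a readout of which transcripts were used. For Runx1, with 7 transcripts in the table, it was 2609, 2521 and 2411 bases with C2S and 3159, 3228 and 2520 bases in the controls. PM_control replicate 3 lay apart from the other controls and within the range of the C2S libraries. The difference of the means was -455.6 bases (exact permutation test, two-sided, p = 0.3, adjusted p = 0.875 over 7 genes; the smallest p that 3 against 3 allows is 0.1). It was between -680 and -326 bases with any one library left out, the first of these without PM_control replicate 3. The lengths of Ptprc, with 13 transcripts, were 3983 ± 36.7 bases with C2S and 4109 ± 143 in the controls (exact permutation p = 0.3, adjusted p = 0.875). The other 5 genes with a length that varied had exact p-values of 0.4 to 1, and the lengths of Cebpa and Cebpb were the same in every library. This measure separated the groups in none of the 9 genes.

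Cbfb, the DNA-binding partner of RUNX1, fell while Runx1 rose, from 187 ± 10.3 to 157 ± 5.41 CPM (log2 fold change -0.25 ± 0.06; edgeR, adjusted p = 0.00248). With the GC trend removed its value was -0.07 (adjusted p = 0.351). Of the 5 tested genes among the other RUNX factors and their cofactors, 2 rose, 1 fell and 2 did not pass (median 0.33). The corepressor genes Cbfa2t2 (34.1 ± 1.42 to 43.0 ± 3.20 CPM) and Cbfa2t3 (0.374 ± 0.470 to 2.96 ± 0.406 CPM, on 12 and 80 counts in all) rose. Neither passed on log2(TPM + 1) (limma, adjusted p = 0.802 and 0.0505). Cbfa2t3 passed the count filter only through the C2S libraries.

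Spi1 (ENSMUSG00000002111, chromosome 2, 91082390 to 91115756) stayed among the most abundant factor genes and did not pass the test. It had 391, 322 and 361 CPM with C2S and 385, 401 and 387 CPM in the controls. C2S replicate 1 lay inside the control range, and the other 2 C2S libraries lay below it. The log2 fold change was -0.13 ± 0.07 (edgeR, adjusted p = 0.121). In TPM the groups did not overlap, with 343, 299 and 320 under C2S against 376, 387 and 396 in the controls, and limma on log2(TPM + 1) gave -0.27 (adjusted p = 0.0145). The call for a fall was also made without C2S replicate 1 (-0.19; adjusted p = 0.0244), with library sizes alone (-0.21; adjusted p = 0.0121) and with the GC trend removed (-0.21; adjusted p = 0.00611), whereas the value was 0.01 (adjusted p = 0.94) with the exon number trend removed.

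Of 11 tested genes of the ETS family other than Spi1, 5 rose, 3 fell and 3 did not pass (median 0.09), and 3 were called higher on log2(TPM + 1). Ets2, an ETS factor downstream of RAS and MAP kinase signalling, rose from 140 ± 13.7 to 449 ± 8.16 CPM (log2 fold change 1.68 ± 0.07; edgeR, adjusted p = 3.15e-12). Etv6, a repressor of the family, rose by 0.70 ± 0.08 on the log2 scale. Elk3, a partner of serum response factor, fell from 102 ± 7.1 to 45.4 ± 7.41 CPM, and Fli1, a factor of blood stem cells and megakaryocytes, had a log2 fold change of -0.39 ± 0.10. Spic, the PU.1-related factor of iron-recycling macrophages, had 0 counts in every library.

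Cebpb rose, Cebpa fell and Cebpd rose by a smaller and less stable amount. Cebpb (ENSMUSG00000056501, chromosome 2, 167688915 to 167690418) had 217, 202 and 226 CPM with C2S and 138, 136 and 152 CPM in the controls, and the groups did not overlap. Its log2 fold change was 0.60 ± 0.07 (edgeR, adjusted p = 7.11e-07), with 0.53 when the GC trend was removed and 1.12 when the exon number trend was. In GENCODE 20.7% of its exon length is shared with Tmem189 on the opposite strand, and no source used here states whether counting used strand, so its value is uncertain. Tmem189 had 1873, 1507 and 1809 counts with C2S, against 1100, 882 and 962 in controls (log2 fold change 0.97 ± 0.07; edgeR, adjusted p = 5.23e-09); its part in the Cebpb value was not tested.

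Cebpa (ENSMUSG00000034957, chromosome 7, 35119293 to 35121928) had 22.4, 22.8 and 24.8 CPM with C2S and 35.4, 32.7 and 30.5 CPM in the controls. Every C2S library lay below every control. Its log2 fold change was -0.50 ± 0.10 (edgeR, adjusted p = 0.000544). That value is close to the median of genes with at most 2 exons, and with the exon number trend removed it was -0.05 (adjusted p = 0.671). With the GC trend removed it was -0.56 (adjusted p = 0.000189).

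Cebpd (ENSMUSG00000071637, chromosome 16, 15887286 to 15891031) had 29.8, 21.2 and 25.0 CPM with C2S and 22.5, 17.6 and 19.5 CPM in the controls. C2S replicate 2 lay below PM_control replicate 1, so the groups overlapped. The log2 fold change was 0.35 ± 0.14 (edgeR, adjusted p = 0.0357), a call lost without C2S replicate 1 (0.22; adjusted p = 0.191), C2S replicate 3 (0.37; adjusted p = 0.0631), PM_control replicate 2 (0.27; adjusted p = 0.151) or PM_control replicate 3 (0.34; adjusted p = 0.0879), and with library sizes alone or on log2(TPM + 1). With the GC trend removed it was 0.32 (adjusted p = 0.0567), and with the exon number trend removed 0.79 (adjusted p = 8.32e-05). Exons of Cebpd overlap those of Spidr on the opposite strand over 15% of their length, which makes the Cebpd value uncertain; Spidr itself had a log2 fold change of 0.42 ± 0.09.

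Within the summed TPM of these 3 C/EBP genes, Cebpb took 90.7%, 90.8% and 91.1% with C2S and 83.5%, 85.3% and 86.8% in the controls. Cebpa took 4.9%, 5.41% and 5.26% with C2S and 11.3%, 10.7% and 9.19% in controls. The shares of both genes were separate between the groups, with differences of 5.66 and -5.21 percentage points (exact permutation test, two-sided, p = 0.1 for each, adjusted p = 0.15 over the 3 genes, where 0.1 is the smallest p that the design allows). The share of Cebpd was 3.93% ± 0.428 against 4.38% ± 0.74 (exact permutation p = 0.5). The TPM ratio of Cebpb to Cebpa was 18.5, 16.8 and 17.3 with C2S, and 7.41, 7.94 and 9.45 in controls. The sum of the 3 genes was 256 to 280 TPM with C2S and 194 to 212 TPM in the controls. Exon overlap with Tmem189 and Spidr makes Cebpb and Cebpd uncertain, so these shares, ratios and sums are uncertain too.

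**Figure D2:**
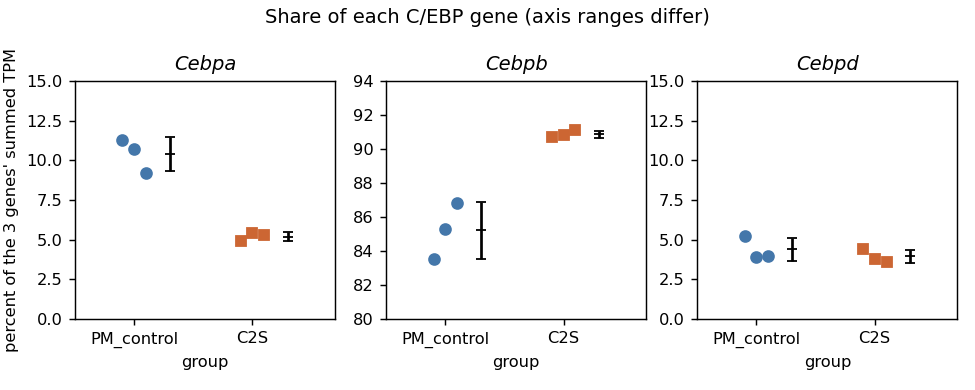
Percent of the summed TPM of Cebpa, Cebpb and Cebpd that each gene took in the 3 PM_control libraries (circles) and the 3 C2S libraries (squares), with mean and SD beside them; the middle panel runs from 80 to 94 percent. The Cebpa share is 4.9% to 5.41% with C2S against 9.19% to 11.3% in the controls, and the Cebpd shares overlap. All shares are uncertain because exons of Cebpb and Cebpd overlap genes on the opposite strand.

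Among 6 tested genes listed with the C/EBP factors by name or as regulators, 2 rose, 1 fell and 3 did not pass (median 0.06). With the exon number trend removed 4 were called higher, and 2 were called lower without C2S replicate 1, C2S replicate 2 or PM_control replicate 3, with library sizes alone, with no low-count filter, with the replicate block and by edgeR's exact test. The 2 that rose were Ddit3, a C/EBP member that forms dimers unable to bind the usual C/EBP sites, from 5.71 ± 0.875 to 149 ± 4.49 CPM (log2 fold change 4.71 ± 0.10; edgeR, adjusted p = 1.29e-15), and Trib3, a pseudokinase, from 2.22 ± 0.668 to 135 ± 0.596 CPM. In TPM Ddit3 had 11.7, 14.7 and 16.4 in the controls, against 172, 166 and 184 for Cebpb. With C2S it stood above Cebpb in every library, at 352, 327 and 343 against 247, 232 and 255 TPM. Cebpz, listed by its name only, fell by 0.41 ± 0.07 on the log2 scale.

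Csf1r (ENSMUSG00000024621, chromosome 18, 61100598 to 61132149) rose by a small step at a high level. It had 3699, 3792 and 3948 CPM with C2S and 3105, 3121 and 2794 CPM in the controls, without overlap. Group means were 3813 ± 126 and 3007 ± 184 CPM, and the log2 fold change was 0.34 ± 0.07 (edgeR, adjusted p = 0.000318), or 1.27-fold. The call held under every alternative, with values from 0.24 to 0.37. Exons of Csf1r overlap Hmgxb3 on the opposite strand over 15.1% of their length, which makes the Csf1r value uncertain. The count of Hmgxb3 was 1058, 882 and 1031 with C2S against 834, 815 and 796 in controls, against 26624 or more counts of Csf1r in each library.

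Its ligands were scarce in these cells. Csf1 had 38 counts in all with C2S and 28 in the controls (1.39 ± 0.227 and 0.911 ± 0.282 CPM; edgeR, adjusted p = 0.26), and Il34 had 3 counts and 0. Of 19 tested genes of signalling from the receptor, 9 rose, 4 fell and 6 did not pass (median 0.15). Gab2, an adaptor that recruits phosphatidylinositol 3-kinase, rose from 28.0 ± 3.10 to 69.9 ± 4.31 CPM, and Socs1, an inhibitor of cytokine signalling, from 0.755 ± 0.109 to 6.65 ± 1.73 CPM. Socs1 passed the count filter only through the C2S libraries. Pik3cg, a catalytic subunit of phosphatidylinositol 3-kinase, fell from 89.0 ± 2.53 to 50.3 ± 4.31 CPM, and the adaptor Dok1 fell by 0.72 ± 0.11 on the log2 scale. On log2(TPM + 1), 5 genes of the list were called higher.

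Of 6 tested genes listed as receptors for other myeloid growth factors, 4 rose, 0 fell and 2 did not pass (median 0.67). The 2 that did not pass were cytokine receptors, Il6ra (-0.03) and Ifngr1 (-0.06). Both chains of the GM-CSF receptor were among those that rose: Csf2ra went from 60.7 ± 4.26 to 91.4 ± 4.37 CPM (log2 fold change 0.59 ± 0.08; edgeR, adjusted p = 6.39e-06) and Csf2rb from 24.9 ± 0.474 to 60.9 ± 1.62 CPM (1.29 ± 0.08; adjusted p = 1.21e-09). The level of each remained far below that of Csf1r, with summed TPM over the list of 193 to 198 with C2S and 161 to 169 in the controls. Flt3, the receptor of dendritic cell progenitors, had 5 counts in all with C2S and 0 in the controls.

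Adgre1 and Laptm5 rose, and Ptprc did not pass the test. Adgre1 (ENSMUSG00000004730, chromosome 17, 57358691 to 57483527) had 45.4, 52.4 and 45.2 CPM with C2S and 33.6, 38.4 and 35.4 CPM in the controls, without overlap. Its log2 fold change was 0.41 ± 0.09 (edgeR, adjusted p = 0.00117), and 0.29 on log2(TPM + 1), where it missed the threshold (limma, adjusted p = 0.0551). Laptm5 (ENSMUSG00000028581, chromosome 4, 130913125 to 130936141) had 2497, 2617 and 2604 CPM with C2S and 1906, 2021 and 1830 CPM in the controls. The groups were separate, the log2 fold change was 0.42 ± 0.06 (edgeR, adjusted p = 2.35e-05), and the call held under every alternative.

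Ptprc (ENSMUSG00000026395, chromosome 1, 138062861 to 138175708) had 200.5, 197 and 187 CPM with C2S and 214, 199.7 and 202 CPM in the controls, and the groups overlapped. The log2 fold change was -0.08 ± 0.06 (edgeR, adjusted p = 0.277). Its direction turned with the GC trend removed (0.21; adjusted p = 0.00573), and with library sizes alone it was called lower (-0.17; adjusted p = 0.0234). Its longest transcript has 39.4% G or C, the lowest of the 9 genes.

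**Figure D3:**
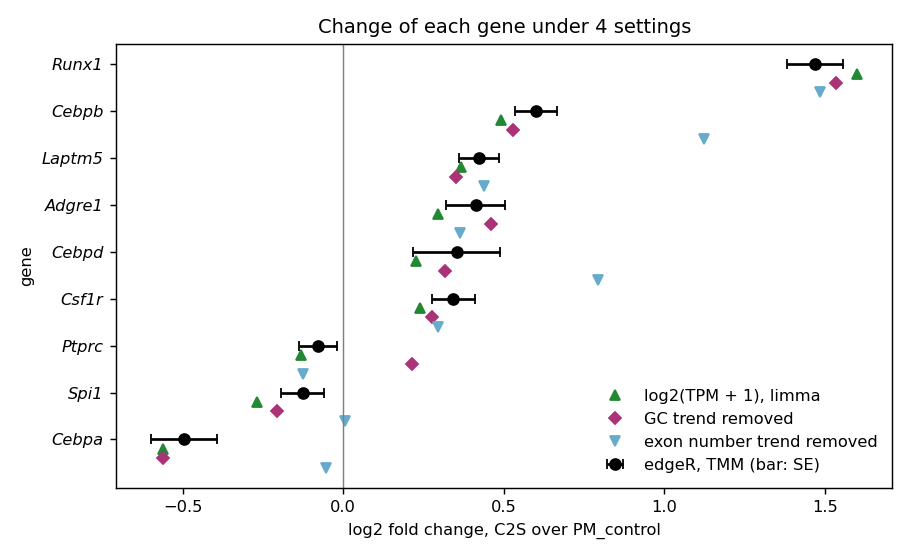
Log2 fold change of each gene, C2S over PM_control, in edgeR with TMM scaling (circles, bars are the SE) and under 3 alternatives. Runx1 stays near 1.5 in all 4, whereas Cebpa moves from -0.50 to -0.05 and Cebpb from 0.60 to 1.12 with the exon number trend removed, and Ptprc moves to 0.21 with the GC trend removed.

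CD45 activates kinases of the SRC family by removing an inhibitory phosphate. Of 17 tested genes, which were these kinases, their inhibitory kinase Csk, its membrane adaptor Pag1 and other tyrosine phosphatases, 10 rose, 4 fell and 3 did not pass (median 0.24), but 2 were called higher on log2(TPM + 1) and 5 with library sizes alone, and 6 without C2S replicate 3 or without PM_control replicate 2. The kinase gene Fyn rose from 69.7 ± 3.4 to 89.7 ± 6.29 CPM. Src also rose but was scarce, with 9 counts in the controls and 47 with C2S. It passed the count filter only through the C2S libraries. Ptpn6, the inhibitory phosphatase SHP-1, fell from 371.5 ± 5.75 to 295.5 ± 5.73 CPM (log2 fold change -0.33 ± 0.06; edgeR, adjusted p = 7.89e-05), and Ptpn22 fell by 0.59 ± 0.08 on the log2 scale.

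Of 23 tested genes listed as shared by leukocytes, 11 rose, 4 fell and 8 did not pass (median 0.18). Laptm4a, a relative of Laptm5 and not a leukocyte marker, was among those that rose (log2 fold change 0.21 ± 0.06). On log2(TPM + 1) 6 were called higher, and 2 were called lower with the exon number trend removed. Lcp2, an adaptor downstream of immune receptors, rose from 76.0 ± 6.17 to 127 ± 16.4 CPM and Itgb2, the β2 integrin chain, from 212 ± 11 to 304 ± 18.2 CPM. Cd52 (log2 fold change -0.48 ± 0.09) and Evi2a (-0.59 ± 0.11) fell, but exons of Cd52 overlap Crybg2 over 14.5% of their length and those of Evi2a overlap Evi2 over 19.2%, which makes both uncertain. With the exon number trend removed neither passed (-0.04 and -0.15).

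Other macrophage markers moved both ways. Of 17 tested surface and granule markers, 4 rose, 4 fell and 9 did not pass (median -0.02); 1 was called higher on log2(TPM + 1), 2 higher with library sizes alone and 2 lower with the exon number trend removed. Itgam, the αM integrin chain CD11b, had 351 ± 23.7 CPM with C2S and 202 ± 7.94 in the controls (log2 fold change 0.80 ± 0.06; edgeR, adjusted p = 1.66e-08), but 68.7% of its exon length is shared with Gm49368 and its value is uncertain. Lyz2, lysozyme, rose by 0.21 ± 0.06, and did not pass with library sizes alone (adjusted p = 0.0974) or on log2(TPM + 1) (adjusted p = 0.165). Cx3cr1, the fractalkine receptor, fell the most of these markers, from 567 ± 39.7 to 109.5 ± 10.3 CPM (log2 fold change -2.38 ± 0.08; edgeR, adjusted p = 1.33e-13). Cd14, the lipopolysaccharide co-receptor, fell from 887 ± 49.5 to 584 ± 25 CPM, a call that missed the threshold with the exon number trend removed (-0.16; adjusted p = 0.0505). Timd4, Marco and Vsig4, markers of resident macrophages, had 0 counts in every library.

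Of 15 tested genes of other macrophage transcription factors, 6 rose, 4 fell and 5 did not pass (median 0.10); 2 were called lower with the GC trend removed. Irf8, the partner of PU.1 in monocyte development, rose from 79.3 ± 4.95 to 144 ± 12.8 CPM (log2 fold change 0.86 ± 0.08; edgeR, adjusted p = 6.17e-08), and Bhlhe40 rose from 9.97 ± 1.01 to 80.7 ± 4.52 CPM. Egr1, an early response factor, rose from 29.9 ± 4.48 to 174 ± 21.6 CPM (2.53 ± 0.11; adjusted p = 4.42e-12), whereas the related Egr2 fell from 12.3 ± 1.54 to 6.28 ± 0.962 CPM (-0.97 ± 0.18; adjusted p = 0.000194). Mef2c fell by 0.31 ± 0.06 on the log2 scale, but was at -0.06 with the GC trend removed (adjusted p = 0.367) and did not pass on log2(TPM + 1) (limma, adjusted p = 0.253).

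Factors of blood progenitors made the list with the most falls relative to its number of tested genes. Of its 6 tested genes, 5 fell and 1 rose (median -0.52), and 3 were called lower and 0 higher on log2(TPM + 1). Tal1 fell from 60.6 ± 2.78 to 25.1 ± 2.01 CPM (log2 fold change -1.27 ± 0.09; edgeR, adjusted p = 3.7e-09) and Ikzf1, which encodes Ikaros, from 155 ± 6.42 to 107 ± 9.37 CPM. Lmo2, a partner of TAL1, rose by 0.33 ± 0.09, a call missed on log2(TPM + 1) (limma, adjusted p = 0.11). Gfi1b, 1 of the 5 that fell, had 0 counts in all with C2S and 35 in the controls. It passed the count filter only through the controls, so the share of falls in this list depends on the filter. Gata2 (36 against 12 counts) and Gfi1 (18 against 1) did not pass the count filter and had more counts with C2S. Myb, Gata1, Meis1 and Hoxa9 had 0 counts in every library.

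**Figure D4:**
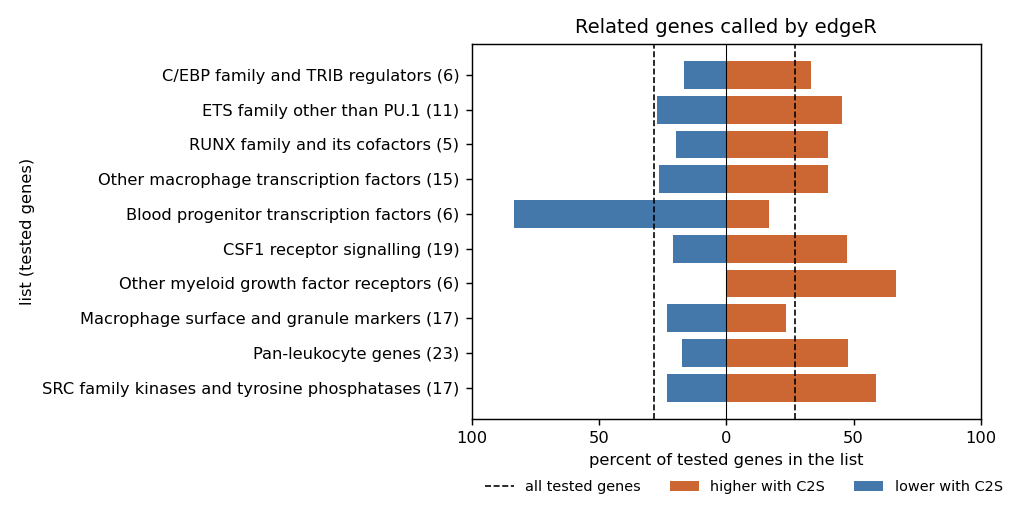
Percent of the tested genes in each list of related genes that edgeR called higher (right) or lower (left) with C2S, with the number tested in brackets and dashed lines at the shares over all tested genes, 27% higher and 28.4% lower. Blood progenitor factors extend furthest to the left, with 5 of 6 genes, and receptors for other myeloid growth factors have none on that side. Gfi1b, among those 5, passed the count filter only through the controls.

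Markers of lymphocytes, granulocytes, dendritic cells and stromal, epithelial and endothelial cells were at 0 or low, and osteoclast markers were detected at higher levels. Of 9 lymphocyte markers none passed the count filter; their summed level was 2.48 to 4.72 TPM with C2S and 0.12 to 0.54 in the controls, with Ms4a1 and Cd3e among those at 0, and Cd79a had 41 and 4 counts in all. Of 11 granulocyte markers 6 were at 0, among them Elane and Ctsg. Their sum was 3.37 to 7.07 TPM with C2S and 0 to 4.24 in the controls. The only tested gene, Mpo, had 54 counts against 0 and passed the count filter only through the C2S libraries. Its exons overlap Gm11505 on the opposite strand over 14.95% of their length, which makes its value uncertain. Of 7 dendritic cell markers, with a sum of 1.63 to 3.10 TPM against 0.82 to 2.08, Itgax rose on 83 against 22 counts. Itgax too passed the count filter only through the C2S libraries. Stromal, epithelial and endothelial markers summed to 0.24 to 0.69 TPM against 0.18 to 0.2, with 7 of 12 at 0. Osteoclast markers, which RAW264.7 cells can express, summed to 18.9 to 24.9 TPM with C2S and 36.7 to 40.5 in the controls, and of 4 tested genes 2 fell. Dcstamp, a fusion protein of osteoclasts, fell from 32.2 ± 1.97 to 17.0 ± 3.02 CPM. It made up most of the sum, with 14.0, 16.5 and 11.3 TPM with C2S and 27.3, 27.5 and 30.0 in the controls. Ctsk did not pass the count filter and went the other way, with 38 counts in all with C2S and 4 in the controls. Atp6v0d2 fell by 0.74 ± 0.29 on the log2 scale but missed the threshold without C2S replicate 1 or 3 or PM_control replicate 2 or 3 (adjusted p = 0.124, 0.089, 0.149 and 0.0785), as with DESeq2 (0.0832), the replicate block (0.0505), the GC trend removed (-0.52; adjusted p = 0.134) and log2(TPM + 1) (limma, adjusted p = 0.0656).

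The genes with profiles most like those of Spi1 and Csf1r were found by the root mean square difference of log2(CPM + 0.5), centred on each gene's mean, over the 6 libraries and 8595 genes with at least 10 CPM. For Spi1 they were Aagab (0.0219), Bri3bp (0.0265) and Dnajc11 (0.0272), and for Csf1r Ift27 (0.0208), Abca3 (0.0226) and Lgals3bp (0.0259). Their log2 fold changes were -0.12, -0.12 and -0.13 beside -0.13 for Spi1, and 0.35, 0.33 and 0.32 beside 0.34 for Csf1r. Choosing genes by profile over these same libraries fixed that closeness in advance. Shared regulation was not tested.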

How the data were processed

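RNA of 3 C2S and 3 PM_control libraries of RAW264.7 cells was sequenced, with groups and replicate numbers taken from the sample titles. Per the series' design text and the submitters' processing notes, reads were trimmed with fastp, aligned to mm10 with STAR and counted with RSEM; their versions, the annotation and the strandedness: not given in the sources used here. The authors deposited expected counts, TPM, FPKM (not used) and transcript lengths per gene, per the file headers. Of 52636 genes, 52403 had a symbol, and GENCODE M21 (GRCm38) gave coordinates, exons and GC content for 52489.

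Expected counts were rounded. Genes were filtered with filterByExpr (minimum count 10, total 15), which left 11561 genes with 99.85% of counts, scaled by TMM and tested with edgeR 4.0.16 in R 4.3.3, with the group as the only term. The script was tested on simulated data. The SE is the log2 fold change divided by the square root of F. Libraries of a group differed by more than sampling noise (chi-square over degrees of freedom 4.3 to 6.46). Alternatives were RLE, upper quartile or no normalization factors, DESeq2 1.42.0, limma 3.58.1 by voom or on log2(TPM + 1) for a mean TPM of at least 1, the exact test of edgeR, other count filters, unrounded counts, the replicate block, each library left out, and removal of a library's trend over GC content or exon number. Leaving libraries out of the length comparison was chosen after the data were seen.

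Members and lists were chosen with earlier results of these data known. Genes named from a list were up to 2 per direction by adjusted p, with groups that did not overlap, and 8 fixed genes; some are not reported here. Genes with at least 10% of their exon length in another gene are given as uncertain.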

Additional observations from a re-analysis of the deposited data

How the results depend on the processing

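Runx1, Cebpb, Csf1r and Laptm5 kept their direction and their call under all 19 alternatives, and the number of genes called stayed within 1.5 times of 6405. Spi1 was called lower with library sizes alone (-0.215), the GC trend removed (-0.208) and log2(TPM + 1) (-0.27), and turned to 0.006 with the exon number trend removed; its range with a library left out was -0.19 to -0.058. Cebpa lost its call with the exon number trend removed (-0.054), and Adgre1 on log2(TPM + 1) (0.294). Cebpd lost it with library sizes alone (0.266), the GC trend removed (0.317) and log2(TPM + 1) (0.228), and ranged from 0.222 to 0.463 with a library left out. Ptprc was called lower with library sizes alone (-0.166) and higher with the GC trend removed (0.214). The causes were not tested. Differences in transcript length changed sign with a library left out for Cebpd (-112.303 to 83.77), Csf1r (-0.338 to 1.777) and Adgre1 (-3.583 to 4.047), all in bases. Libraries with the same replicate number showed little shared deviation (correlations -0.011, 0.069 and 0.034). That check cannot show whether they shared a culture or a batch. Of the C2S libraries, those numbered 2 and 3 correlated best with the control of their own number. With the replicate block 6489 genes were called, and no member's call changed. Depth limits Il34, Flt3 and the markers of lymphocytes, granulocytes, dendritic, stromal, epithelial and endothelial cells, which had few or no counts.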
